A study of Homo sapiens with 12 samples.

Results

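A set of 52 genes of DNA replication and of the G1/S transition was followed across the 4 conditions of an mRNA-seq experiment in T98-G cells, an established line derived from a human glioblastoma. They were taken from a list of symbols drawn up by role, with no measured value in the rule. The list was chosen with earlier results of these data known. All 52 genes were among the 14698 genes of the count table. They cover the licensing of origins (10 genes), the activation of the helicase (6), the polymerases and primase (9), the sliding clamp and its loader (6), the single-strand binding protein RPA (3), the joining of Okazaki fragments (2), the supply of deoxynucleotides (4), the regulators of the G1/S transition (6), the protection of the fork (4) and ubiquitin ligases that act in S phase (2).

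Cells received 1 µM onametostat, which blocks PRMT5, an enzyme that methylates arginine, or its solvent DMSO at 0.1%, and stayed 48 h under hypoxia (1% oxygen) or normoxia (20% oxygen). The groups were thus onametostat in hypoxia, onametostat in normoxia, DMSO in hypoxia and DMSO in normoxia, with 3 libraries each and 12 in all, from 1 cell line. The titles number the 3 libraries of a group as experiments 1 to 3, which the study calls independent, so p-values measure the spread between these experiments in 1 line. A block on the experiment number is named below where it changed a call. The comparisons asked how the inhibitor acts at each oxygen level and how oxygen acts at each treatment.

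Total counts per library ran from 18154073 to 45977729, apart from libraries 2 and 3 of onametostat in hypoxia with 7641280 and 403279. In that group only library 1, with 21049160, was as deep as the libraries of the other groups. In library 3 of this group 1 count is worth 2.69 CPM (counts scaled by the size of the library). POLA2 had 0 there, which allows up to 8.07 CPM (3 counts, for counting error only). This library held fewer than 30 counts for 28 of the 52 genes. Its counts departed from those of its replicates far beyond counting noise (chi-square per degree of freedom of 46.0 and 81.2, against 1.93 to 8.30 for the 10 other pairs of replicates), so results in hypoxia with onametostat are also given without it. Of the markers checked for the line, VIM, CD44, FN1, TNC, EGFR and S100A6 were measured, VIM at 1356 CPM and CD44 at 1825 CPM on average with onametostat in hypoxia. The other markers looked for, SOX2, GFAP, NES and CHI3L1, were absent from the filtered count table. Of 15 genes known to respond to hypoxia, with DMSO 6 were higher in hypoxia and 2 lower (EGLN3 by 0.53 and NDRG1 by 0.48 on the log2 scale, CA9 at 0.06 with an adjusted p of 0.787, VEGFA at -0.47), and with onametostat 0 were higher in hypoxia and 4 lower. Of all genes 7.69% were higher and 6.16% lower in the comparison with the inhibitor, and 14.1% and 13.9% in that with the solvent. Most of the 15 were thus not higher in hypoxia under either treatment. The oxygen labels were borne out in part with DMSO and not with onametostat, and every result on oxygen rests on the labels.

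In a dividing cell, origins are licensed in G1, when the origin recognition complex, CDC6 and CDT1 load the MCM helicase onto DNA. Cyclin-dependent kinases then free the E2F factors from the retinoblastoma protein, and E2F drives the transcription of cyclin E, of the licensing factors and of the enzymes that make deoxynucleotides. In S phase CDC45 and the GINS complex turn the loaded MCM into a moving helicase, polymerase alpha with its primase starts each strand, and polymerases delta and epsilon extend it with the PCNA clamp. In glioblastoma, as in other tumours, these genes are a usual readout of proliferation.

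E2F binds short GC-rich elements near the start of many of these genes, so the promoter windows of RefSeq (build GRCh38.p14, 250 bases before to 50 after a start) were searched for the motifs TTTCCCGC, TTTGGCGC, TTTGCCGC and TTTCGCGC on both strands, with matches that overlap counted separately. A window was at hand for 45 of the 52 genes, and 24 of the 45 (53.3%) held at least 1 motif, where 715 of 10653 genes of the count table with a window did (6.71%). Of all 35116 windows, 3.31% held one, and of the 57 windows of the 52 genes 43.9% did. The motif was about as frequent among genes that were lower with onametostat in normoxia (15 of 27, 55.6%) as among those that were higher (5 of 9, 55.6%) or did not pass (4 of 9, 44.4%). A match is a description of the letters and not a binding site. By adjusted p with onametostat in normoxia RRM2 and TIMELESS came first, but their windows held no motif, and GINS4, the next, had no window. Shown are the promoters of the first 4 genes in this order that changed at both oxygen levels and held a motif. They are given as the 250 bases before the start on the strand of the gene, with the motif in capitals. They belong to POLA1 (chromosome X, 24693668 to 24693917, plus strand), TYMS (chromosome 18, 657403 to 657652, plus strand), DTL (chromosome 1, 212035498 to 212035747, plus strand) and LIG1 (chromosome 19, 48170345 to 48170594, minus strand).
POLA1: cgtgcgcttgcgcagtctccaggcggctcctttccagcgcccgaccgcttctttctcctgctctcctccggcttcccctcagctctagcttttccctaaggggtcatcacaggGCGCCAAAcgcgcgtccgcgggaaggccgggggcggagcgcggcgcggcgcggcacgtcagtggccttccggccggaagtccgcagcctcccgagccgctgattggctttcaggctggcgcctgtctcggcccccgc
TYMS: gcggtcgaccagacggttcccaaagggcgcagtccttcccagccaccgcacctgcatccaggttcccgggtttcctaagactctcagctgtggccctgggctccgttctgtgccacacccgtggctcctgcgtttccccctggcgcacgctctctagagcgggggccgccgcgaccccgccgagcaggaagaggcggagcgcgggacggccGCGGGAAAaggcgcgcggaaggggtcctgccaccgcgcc
DTL: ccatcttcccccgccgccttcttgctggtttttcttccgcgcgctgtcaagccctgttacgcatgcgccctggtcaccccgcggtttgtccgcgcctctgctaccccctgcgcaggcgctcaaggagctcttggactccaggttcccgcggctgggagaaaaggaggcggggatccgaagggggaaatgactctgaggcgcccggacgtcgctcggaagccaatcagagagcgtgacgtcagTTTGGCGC
LIG1: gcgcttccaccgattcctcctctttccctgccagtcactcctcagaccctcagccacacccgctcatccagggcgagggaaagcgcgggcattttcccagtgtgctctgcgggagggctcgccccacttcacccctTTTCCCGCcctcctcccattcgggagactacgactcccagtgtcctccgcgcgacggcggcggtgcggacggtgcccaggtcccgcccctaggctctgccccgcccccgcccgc
Counted from the start, the first base of the motif lies at position -137 in POLA1, at -39 in TYMS, at -8 in DTL and at -114 in LIG1. In POLA1 and TYMS it reads on the opposite strand, as GCGCCAAA and GCGGGAAA. All 4 of these genes were lower with onametostat, and the windows of POLE and CDT1, which were higher, also held a motif (at -18 and -35).

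As a whole the 52 genes took a smaller share of the counts with onametostat. The share was 0.503% ± 0.0404 with onametostat in hypoxia, 0.530% ± 0.00306 with onametostat in normoxia, 0.605% ± 0.00404 with DMSO in hypoxia and 0.660% ± 0.00252 with DMSO in normoxia (SD, n = 3 each). The groups with onametostat lay below both groups with DMSO in every library, with library 3 of onametostat in hypoxia lowest at 0.457%.

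Levels differed widely among the 52 genes. Per kilobase of exon in DMSO in normoxia, PCNA stood highest at 269 ± 4.44 CPM per kb (SD, n = 3), which put it at percentile 99.4 of all genes, and it was followed by TK1 at 136 ± 1.20 CPM per kb. POLA2 was lowest at 1.05 ± 0.0653 CPM per kb (percentile 26.9), below POLE2 at 3.75 ± 0.306 and E2F2 at 3.88 ± 0.0571, which did not differ beyond their spread. The subunits of the MCM ring, which sit in the complex in equal numbers, ran from 97.1 ± 0.694 CPM per kb for MCM3 and 81.2 ± 0.799 for MCM7 to 45.3 ± 0.491 for MCM4, 37.0 ± 0.956 for MCM6, 34.2 ± 0.285 for MCM2 and 31.3 ± 0.865 for MCM5. The length used joins the exons of all annotated transcripts, 3645 bases for MCM3, 9852 for MCM4 and 12006 for POLA2. The order per kb thus depends on the annotation. In counts MCM4 stood above MCM3 (10305 and 8109 in library 1 of DMSO in normoxia). In bulk RNA a lower level can come from fewer cells that express a gene or from less RNA per cell, and these cannot be told apart here.

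With onametostat most of these genes were lower than with DMSO at both oxygen levels, and a smaller set was higher. In hypoxia 28 of 52 were lower and 10 higher at an adjusted p under 0.05 (edgeR, over all genes), with 14 that did not pass, where 26.4% of all genes tested were lower and 25.6% higher. In normoxia 33 were lower and 9 higher, with 10 that did not pass, where 29.3% of all genes were lower and 27.2% higher. The median log2 fold change of the 52 genes was -0.20 in hypoxia and -0.29 in normoxia, and that of all genes was -0.01 in both. Without library 3 of onametostat in hypoxia, 28 were lower and 11 higher in hypoxia (all genes 27% and 26.7%), with a median of -0.18. Without library 1 of onametostat in hypoxia that median was -0.12. The count of 9 higher genes in normoxia was 5 without library 3 of DMSO in normoxia.

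Changes of more than 2-fold were few. At an absolute log2 fold change above 1 the set held 3 lower genes and 0 higher ones in hypoxia (5.44% and 2.08% of all genes), and likewise 3 lower and 0 higher in normoxia (4.35% and 1.76% of all genes). These were RRM2, TIMELESS and GINS4 at both oxygen levels. The onametostat comparisons at the 2 oxygen levels share no library. Of the 52 genes 27 were lower at both (96.4% of the 28 in hypoxia and 81.8% of the 33 in normoxia), where of all genes 3260 were (83.9% of those lower in hypoxia and 75.6% in normoxia). Higher at both were 7 (70% of the 10 in hypoxia and 77.8% of the 9 in normoxia), where of all genes 3040 were (80.8% and 76.2%). The 7 were ORC6, CDT1, POLE, RFC1, RFC3, CCNA2 and CDC25A. GINS1, GINS3, POLD1, RPA1, RPA2, RRM1 and TIPIN passed at neither level, which does not show that they were unaffected.

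**Figure D1:**
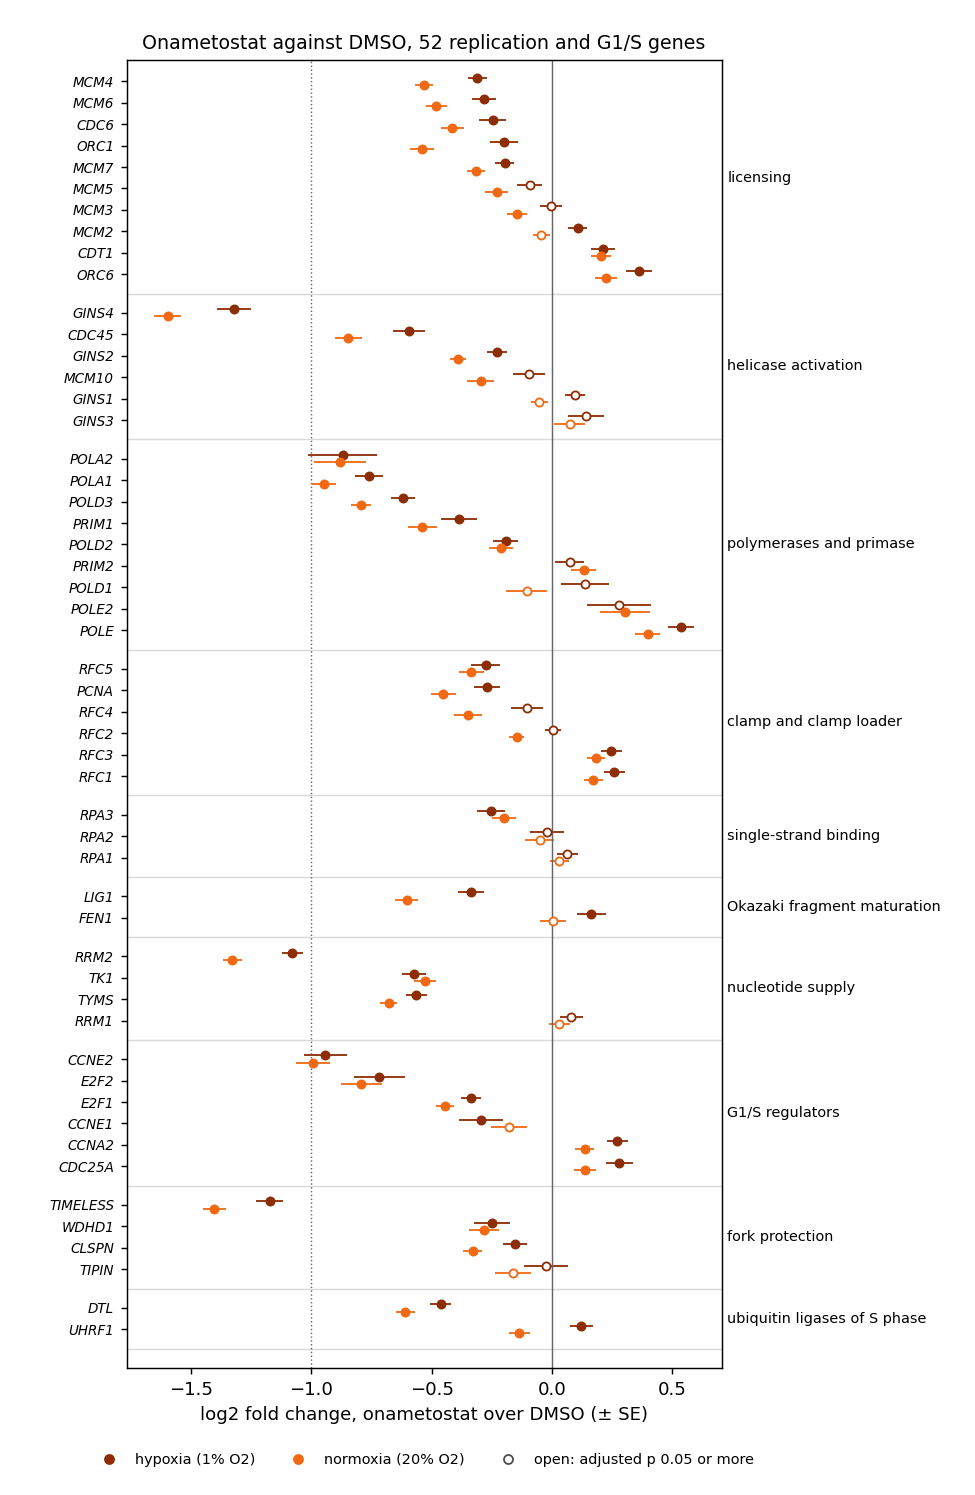
Log2 fold change of onametostat over DMSO for each of the 52 genes (x axis, with its SE), by role from top to bottom, with hypoxia in dark brown and normoxia in orange. Filled points have an adjusted p under 0.05 (edgeR), and the dotted line marks -1, beyond which only GINS4, RRM2 and TIMELESS lie at either oxygen level.

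Among the genes that supply deoxynucleotides, RRM2, the small subunit of ribonucleotide reductase that carries its radical, had the smallest adjusted p of the 52 genes at both oxygen levels. In hypoxia its level was 106, 106 and 118 CPM with onametostat, against 226, 228 and 222 CPM with DMSO, and in normoxia 109, 104 and 106 CPM with onametostat, against 275, 264 and 260.3 CPM with DMSO. No library with onametostat came near one with DMSO, and the log2 fold change was -1.08 ± 0.044 (SE) in hypoxia (adjusted p = 3.11e-11) and -1.33 ± 0.040 in normoxia (adjusted p = 3.33e-13). RRM1, the large subunit of the same enzyme, did not pass (0.08 ± 0.047 in hypoxia, adjusted p = 0.159, and 0.03 ± 0.044 in normoxia, adjusted p = 0.569). Without library 3 of onametostat in hypoxia RRM1 was higher in hypoxia, at 0.11 (adjusted p = 0.0329).

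TYMS, which makes thymidylate from deoxyuridylate, stood in hypoxia at 70.4, 70.1 and 70.0 CPM with onametostat, against 102, 105 and 105 CPM with DMSO. In normoxia TYMS was measured at 64.9, 70.6 and 67.4 CPM with onametostat, against 112, 106 and 108 CPM with DMSO. TYMS was lower at both levels, with no overlap, at -0.56 ± 0.042 in hypoxia (adjusted p = 1.28e-08) and -0.68 ± 0.036 in normoxia (adjusted p = 1.48e-10). TK1, the thymidine kinase of the salvage pathway, was at 157, 163 and 137 CPM with onametostat, against 236, 225 and 240.3 CPM with DMSO in hypoxia. In normoxia TK1 was at 181, 177 and 166 CPM with onametostat, against 250, 254 and 250.3 CPM with DMSO. TK1 was likewise lower, at -0.57 ± 0.050 (adjusted p = 6.64e-08) in hypoxia and -0.53 ± 0.045 (adjusted p = 4.00e-08) in normoxia. Of the exon bases of TYMS, 39.9% lie in exons of ENOSF1 on the opposite strand. The library kit keeps the strand, but featureCounts at its defaults, as the study's methods give it, does not use it. Reads of this stretch are thus uncertain. ENOSF1 itself was at 0.37 (adjusted p = 0.0590) in hypoxia and 0.08 (adjusted p = 0.609) in normoxia. Exon bases are also shared with other genes in GINS4 (23.4%), MCM2 (23.6%), TIPIN (21.1%) and POLA2 (21.3%), so their reads there are uncertain too.

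Fork protection was led by TIMELESS (chromosome 12), which with its partner TIPIN links the helicase to the polymerases. TIMELESS stood in hypoxia at 41.1, 44.4 and 40.4 CPM with onametostat, against 99.2, 90.5 and 97.0 CPM with DMSO. In normoxia TIMELESS was at 37.3, 33.0 and 36.3 CPM with onametostat, against 92.4, 95.3 and 92.2 CPM with DMSO. The groups were far apart, at -1.17 ± 0.057 in hypoxia (adjusted p = 1.43e-10) and -1.40 ± 0.048 in normoxia (adjusted p = 1.03e-12). TIPIN was at 20.4, 22.1 and 8.07 CPM with onametostat, against 19.6, 21.9 and 21.3 CPM with DMSO in hypoxia, where the third library with onametostat holds 3 counts. In normoxia TIPIN was at 23.0, 25.0 and 24.6 CPM with onametostat, against 27.0, 27.5 and 27.0 CPM with DMSO. TIPIN did not pass at either level (-0.02 ± 0.092, adjusted p = 0.848, in hypoxia and -0.16 ± 0.075, adjusted p = 0.0750, in normoxia), though it was below DMSO in all 3 libraries in normoxia and passed there without library 3 of onametostat in hypoxia (adjusted p = 0.0254) and with the experiment as a block (-0.16, adjusted p = 0.0395).

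CLSPN encodes claspin, which carries the checkpoint signal from ATR to CHK1 at stalled forks. It was at 64.4, 67.9 and 61.9 CPM with onametostat, against 77.0, 72.5 and 70.1 CPM with DMSO in hypoxia, and in normoxia at 64.3, 63.6 and 60.0 CPM with onametostat, against 80.4, 76.6 and 79.5 CPM with DMSO. CLSPN was lower, at -0.15 ± 0.048 (adjusted p = 0.0130) in hypoxia and -0.33 ± 0.041 (adjusted p = 2.90e-06) in normoxia. The call in hypoxia was lost without library 1 of onametostat in hypoxia (-0.12, adjusted p = 0.216) and when library 1 of DMSO in hypoxia was left out (-0.11, adjusted p = 0.0895). WDHD1, which ties polymerase alpha to the helicase, had 33.6, 35.2 and 29.6 CPM with onametostat, against 39.2, 43.4 and 38.8 CPM with DMSO in hypoxia. In normoxia WDHD1 had 38.5, 38.5 and 44.6 CPM with onametostat, against 48.2, 49.6 and 49.7 CPM with DMSO. WDHD1 was lower, at -0.25 ± 0.074 (adjusted p = 0.00984) in hypoxia and -0.28 ± 0.062 (adjusted p = 0.000912) in normoxia, and the call in hypoxia was lost without library 1 of onametostat in hypoxia (-0.22, adjusted p = 0.112).

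In the activation of the helicase 3 of 6 genes were lower in hypoxia and 4 of 6 in normoxia, and 0 were higher. Among all genes 26.4% were lower and 25.6% higher in hypoxia, and 29.3% and 27.2% in normoxia. GINS4, 1 of the 4 subunits of the GINS complex, had the lowest fold change of all 52 genes. In hypoxia GINS4 was at 18.8, 16.3 and 13.4 CPM with onametostat, against 46.5, 43.8 and 43.0 CPM with DMSO, with 5 counts behind the third library with onametostat. In normoxia GINS4 was at 18.6, 19.1 and 18.3 CPM with onametostat, against 56.5, 56.8 and 56.2 CPM with DMSO. That is a log2 fold change of -1.32 ± 0.071 (adjusted p = 3.48e-10) in hypoxia and -1.60 ± 0.057 (adjusted p = 1.79e-12) in normoxia. The other subunits moved less: GINS2 was lower, at -0.23 ± 0.041 (adjusted p = 0.000159) and -0.39 ± 0.034 (adjusted p = 4.23e-08), while GINS1 (0.10 and -0.05) and GINS3 (0.14 and 0.07) did not pass at either level.

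The level of GINS2 in hypoxia was 51.2, 53.8 and 48.4 CPM with onametostat, against 61.1, 61.8 and 60.4 CPM with DMSO. In normoxia it was 59.4, 58.9 and 60.0 CPM with onametostat, against 79.1, 77.0 and 77.7 CPM with DMSO. All libraries with onametostat were below those with DMSO at the same oxygen level. GINS1 stood in hypoxia at 88.5, 87.0 and 96.9 CPM with onametostat, against 84.5, 83.9 and 79.5 CPM with DMSO. In normoxia GINS1 stood at 88.9, 94.8 and 93.5 CPM with onametostat, against 93.8, 98.7 and 94.9 CPM with DMSO, and the groups overlapped there. CDC45, which joins MCM and GINS in the active helicase, was at 41.0, 45.2 and 29.6 CPM with onametostat, against 63.2, 64.3 and 63.4 CPM with DMSO in hypoxia. In normoxia CDC45 was at 41.4, 41.3 and 35.8 CPM with onametostat, against 69.3, 72.0 and 72.0 CPM with DMSO, and it was lower, at -0.59 ± 0.066 (adjusted p = 1.14e-06) in hypoxia and -0.85 ± 0.055 (adjusted p = 1.54e-09) in normoxia. MCM10, needed for the helicase to start, was at 54.4, 62.2 and 32.3 CPM with onametostat, against 63.1, 62.1 and 56.7 CPM with DMSO in hypoxia. In normoxia MCM10 was at 62.1, 61.3 and 62.5 CPM with onametostat, against 76.2, 75.0 and 76.7 CPM with DMSO. Its groups overlapped in hypoxia (-0.10 ± 0.067, adjusted p = 0.247) and not in normoxia (-0.29 ± 0.056, adjusted p = 0.000259). Without library 2 of onametostat in hypoxia MCM10 passed in hypoxia as well (-0.19, adjusted p = 0.0429).

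**Figure D2:**
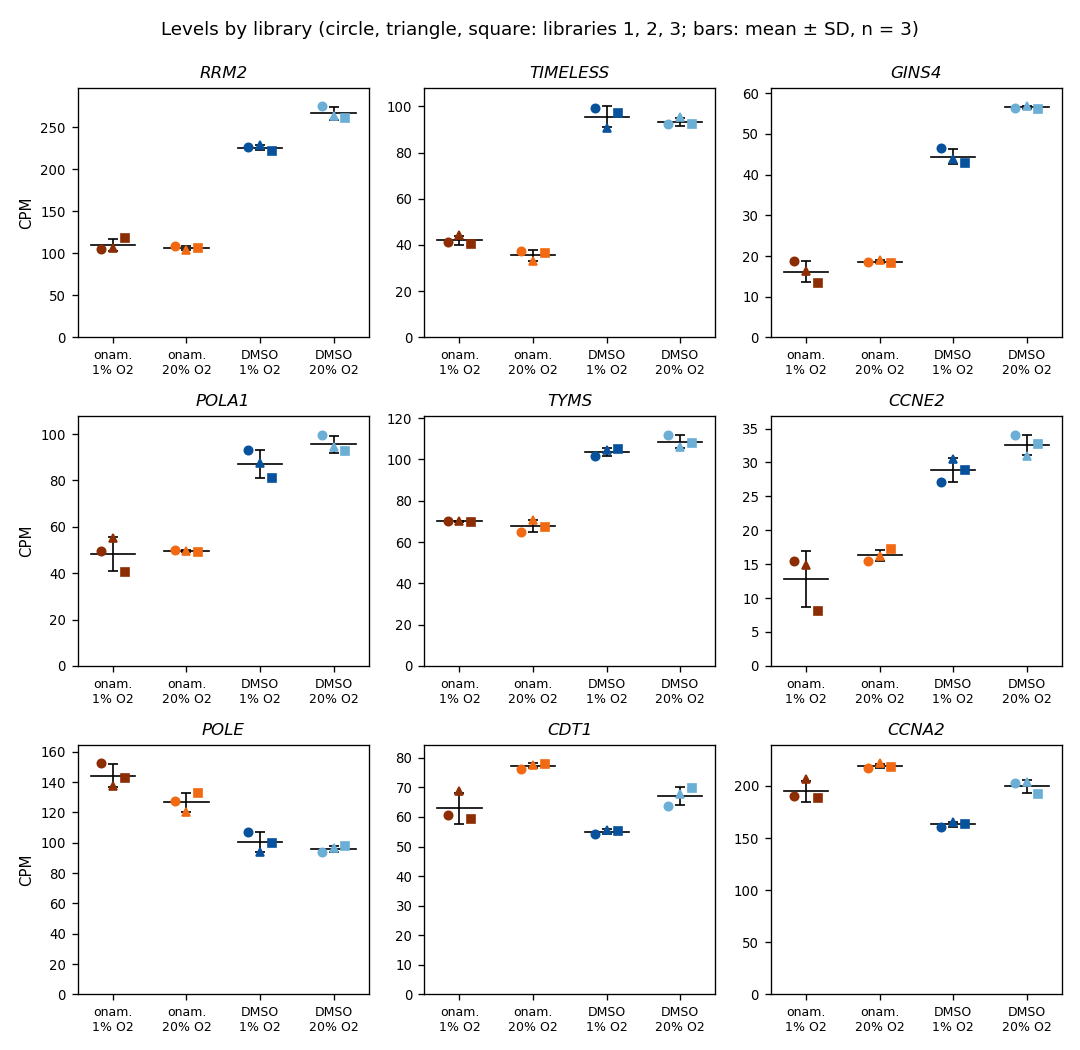
Levels in CPM (y axis, from 0) of 9 of the genes in each of the 12 libraries, by group on the x axis, with onametostat left of DMSO and hypoxia left of normoxia in each treatment. Circles, triangles and squares are libraries 1, 2 and 3 and the bars are the mean ± SD. For RRM2, TIMELESS, GINS4, POLA1, TYMS and CCNE2 the 6 libraries with onametostat lie below the 6 with DMSO, and for POLE they lie above.

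Licensing genes moved in both directions. Of the 10, 5 were lower and 3 higher in hypoxia, and 7 were lower and 2 higher in normoxia. Among all genes 26.4% were lower and 25.6% higher in hypoxia, and 29.3% and 27.2% in normoxia. The counts of higher licensing genes were thus near the shares of all genes. Among the loading factors CDC6, the ATPase that recruits MCM with CDT1, was at 115, 111 and 78.0 CPM with onametostat, against 133, 129.6 and 131 CPM with DMSO in hypoxia. In normoxia CDC6 was at 111, 110.4 and 113 CPM with onametostat, against 153, 148 and 145 CPM with DMSO. CDC6 was lower, at -0.25 ± 0.055 (adjusted p = 0.00119) and -0.41 ± 0.049 (adjusted p = 1.72e-06). CDT1, its partner, was in contrast higher, at 60.7, 68.8 and 59.2 CPM with onametostat, against 54.1, 55.6 and 55.4 CPM with DMSO in hypoxia. In normoxia CDT1 was at 76.3, 77.7 and 78.0 CPM with onametostat, against 63.8, 67.8 and 69.8 CPM with DMSO. The log2 fold change of CDT1 was 0.21 ± 0.051 (adjusted p = 0.00213) in hypoxia and 0.20 ± 0.043 (adjusted p = 0.000618) in normoxia, with no overlap at either level. Library 3 of onametostat in hypoxia held 22 counts of CDT1. Without libraries 2 and 3 of that group the value in hypoxia was 0.14. Of the origin recognition complex, ORC6 was higher (0.36 and 0.22) and ORC1 lower (-0.20 in hypoxia and -0.54 in normoxia). In hypoxia library 3 with onametostat held the highest level of ORC1, and the call was lost without library 1 of onametostat or library 3 of DMSO in hypoxia (-0.16 to -0.10, adjusted p = 0.0857 to 0.304).

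Within the MCM ring the subunits did not move alike. MCM4 was at 330.4, 328 and 331 CPM with onametostat, against 417, 408 and 402 CPM with DMSO in hypoxia. In normoxia MCM4 was at 304, 314 and 308 CPM with onametostat, against 448, 450.2 and 441 CPM with DMSO. MCM4 was lower, at -0.31 ± 0.040 (adjusted p = 5.10e-06) and -0.53 ± 0.038 (adjusted p = 4.01e-09). MCM6 (-0.28 in hypoxia and -0.48 in normoxia) and MCM7 (-0.20 and -0.32) were lower at both levels too, and MCM3 (-0.15) and MCM5 (-0.23) passed in normoxia and not in hypoxia (0.00 and -0.09). MCM2 was at 151, 157 and 153 CPM with onametostat, against 144, 142 and 143 CPM with DMSO in hypoxia. In normoxia MCM2 was at 153, 162 and 155 CPM with onametostat, against 160.3, 163 and 161 CPM with DMSO, where the groups overlapped (-0.04 ± 0.036, adjusted p = 0.305). MCM2 was higher in hypoxia by 0.11 ± 0.040 (adjusted p = 0.0328), a call that was lost without any 1 of 4 libraries (libraries 2 and 3 of DMSO and 1 and 2 of onametostat in hypoxia, 0.08 to 0.13, adjusted p = 0.0511 to 0.156) with the experiment as a block (0.10, adjusted p = 0.0548) and with library sizes alone as the scale (0.04, adjusted p = 0.506).

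Of the polymerases, the catalytic subunit of polymerase alpha, POLA1, was at 49.6, 55.0 and 40.4 CPM with onametostat, against 92.9, 87.7 and 80.9 CPM with DMSO in hypoxia. In normoxia POLA1 was at 50.1, 49.6 and 49.2 CPM with onametostat, against 99.7, 94.5 and 92.6 CPM with DMSO. POLA1 was lower, at -0.76 ± 0.060 (adjusted p = 2.26e-08) in hypoxia and -0.95 ± 0.050 (adjusted p = 1.39e-10) in normoxia. The accessory subunit POLA2 (-0.87 and -0.88) and the small primase subunit PRIM1 (-0.39 and -0.54) were lower as well, whereas the large primase subunit PRIM2 was at 0.07 in hypoxia (adjusted p = 0.432) and higher by 0.13 in normoxia (adjusted p = 0.0369). That last call was lost without any 1 of 5 libraries (libraries 2 and 3 of DMSO and all 3 of onametostat in normoxia, adjusted p = 0.0590 to 0.127).

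Polymerase delta copies the lagging strand. Its subunit POLD3 was at 48.4, 45.6 and 35.0 CPM with onametostat, against 70.7, 73.8 and 71.3 CPM with DMSO in hypoxia. In normoxia POLD3 was at 43.0, 45.7 and 43.4 CPM with onametostat, against 76.9, 75.2 and 77.8 CPM with DMSO. POLD3 was lower, at -0.62 ± 0.051 (adjusted p = 3.31e-08) in hypoxia and -0.79 ± 0.042 (adjusted p = 1.59e-10) in normoxia, with POLD2 lower, at -0.19 and -0.21 and the catalytic POLD1 not passing (0.14 and -0.10). Polymerase epsilon copies the leading strand, and its catalytic subunit POLE had the largest rise of the 52 genes at both levels. POLE was at 152, 137 and 143 CPM with onametostat, against 107, 94.1 and 99.9 CPM with DMSO in hypoxia. In normoxia POLE was at 127, 120.2 and 133 CPM with onametostat, against 94.0, 96.7 and 97.9 CPM with DMSO. The rise was 0.54 ± 0.056 (adjusted p = 5.27e-07) in hypoxia and 0.40 ± 0.051 (adjusted p = 3.93e-06) in normoxia, with no overlap. The second subunit POLE2 was at 10.0, 14.2 and 8.07 CPM with onametostat, against 10.4, 9.33 and 8.72 CPM with DMSO in hypoxia, where the groups overlapped (0.28 ± 0.134, adjusted p = 0.0916). In normoxia POLE2 was at 12.7, 14.9 and 12.9 CPM with onametostat, against 11.9, 11.1 and 10.1 CPM with DMSO, higher by 0.30 ± 0.105 (adjusted p = 0.0208), and this call was lost without library 2 of onametostat in normoxia (0.21, adjusted p = 0.122) and when library 3 of DMSO in normoxia was left out (0.25, adjusted p = 0.0680). In hypoxia POLE2 passed without library 1 of onametostat in hypoxia (0.56, adjusted p = 0.0167) and when library 1 of DMSO in hypoxia was left out (0.33, adjusted p = 0.0499).

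PCNA, the clamp that holds the polymerases on DNA, was at 278, 299.9 and 237 CPM with onametostat, against 334, 342 and 336 CPM with DMSO in hypoxia. In normoxia PCNA was at 273, 280.2 and 273 CPM with onametostat, against 382, 370.1 and 378 CPM with DMSO. PCNA was lower, at -0.27 ± 0.055 (adjusted p = 0.000499) and -0.45 ± 0.052 (adjusted p = 1.18e-06). The clamp loader split: RFC5 was lower at both levels (-0.28 and -0.33), RFC2 (-0.15) and RFC4 (-0.35) passed in normoxia and not in hypoxia (0.00 and -0.10), and RFC1 (0.26 and 0.17) and RFC3 (0.25 and 0.18) were higher at both. Of the RPA subunits, which coat single strands, RPA3 was lower (-0.25 and -0.20) and RPA1 and RPA2 did not pass. LIG1, the ligase that seals Okazaki fragments, was at 73.5, 73.7 and 96.9 CPM with onametostat, against 92.5, 90.7 and 98.8 CPM with DMSO in hypoxia. In normoxia LIG1 was at 60.5, 56.4 and 63.2 CPM with onametostat, against 90.0, 93.3 and 89.1 CPM with DMSO. LIG1 was lower, at -0.34 ± 0.055 (adjusted p = 6.47e-05) in hypoxia, where library 3 with onametostat overlapped DMSO, and at -0.60 ± 0.047 (adjusted p = 1.28e-08) in normoxia. FEN1, the nuclease that trims the same fragments, was higher in hypoxia by 0.16 ± 0.061 (adjusted p = 0.0327), a call lost without any 1 of 9 libraries (the exceptions being library 2 of onametostat in normoxia and, in hypoxia, library 3 of onametostat and library 1 of DMSO, adjusted p = 0.0563 to 0.148) and with the experiment as a block (0.15, adjusted p = 0.0590). FEN1 was at 0.00 in normoxia.

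Among the regulators of G1/S, cyclin E2 and the activator E2Fs were lower and cyclin A2 and CDC25A higher. CCNE2, a cyclin that activates CDK2 at the start of S phase, was at 15.5, 14.9 and 8.07 CPM with onametostat, against 27.1, 30.6 and 28.9 CPM with DMSO in hypoxia. In normoxia CCNE2 was at 15.5, 16.2 and 17.2 CPM with onametostat, against 34.0, 31.0 and 32.7 CPM with DMSO. CCNE2 was lower, at -0.94 ± 0.089 (adjusted p = 1.73e-07) in hypoxia and -0.99 ± 0.071 (adjusted p = 4.80e-09) in normoxia. Of its exon bases 37.0% lie in exons of INTS8 on the opposite strand, with the same limit as for TYMS, and INTS8 was at -0.01 in hypoxia (adjusted p = 0.864) and -0.06 in normoxia (adjusted p = 0.273). The other cyclin E gene, CCNE1, was at 15.3, 19.3 and 10.8 CPM with onametostat, against 20.1, 21.0 and 20.0 CPM with DMSO in hypoxia. In normoxia CCNE1 was at 18.5, 18.5 and 19.6 CPM with onametostat, against 20.7, 21.2 and 22.2 CPM with DMSO. It was lower in hypoxia at -0.30 ± 0.092 (adjusted p = 0.0124), a call lost without library 1 of onametostat in hypoxia (-0.13, adjusted p = 0.475). In normoxia CCNE1 was below DMSO in all 3 libraries at -0.18 ± 0.075 (adjusted p = 0.0502), and it passed without any 1 of 7 libraries (adjusted p = 0.0253 to 0.0483) and with the experiment as a block (-0.18, adjusted p = 0.0315).

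E2F1 and E2F2 are E2F factors that activate S-phase genes. E2F1 was at 93.2, 91.5 and 94.2 CPM with onametostat, against 119, 114 and 117 CPM with DMSO in hypoxia. In normoxia E2F1 was at 93.2, 90.4 and 86.4 CPM with onametostat, against 120, 121 and 126 CPM with DMSO. E2F1 was lower, at -0.33 ± 0.042 (adjusted p = 4.40e-06) in hypoxia and -0.44 ± 0.037 (adjusted p = 2.54e-08) in normoxia. E2F2 was at 12.8, 12.9 and 2.69 CPM with onametostat, against 21.6, 19.5 and 21.2 CPM with DMSO in hypoxia, with 1 count behind the third library with onametostat. In normoxia E2F2 was at 11.1, 12.8 and 12.4 CPM with onametostat, against 21.5, 21.1 and 20.9 CPM with DMSO. E2F2 was lower, at -0.72 ± 0.105 (adjusted p = 2.29e-05) and -0.79 ± 0.085 (adjusted p = 5.71e-07).

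CCNA2 encodes cyclin A2, the cyclin of S phase and G2. It was at 190.1, 207 and 188 CPM with onametostat, against 160.2, 165 and 164 CPM with DMSO in hypoxia, and in normoxia at 218, 222 and 218 CPM with onametostat, against 203, 203 and 192 CPM with DMSO. CCNA2 was higher by 0.27 ± 0.044 (adjusted p = 6.32e-05) in hypoxia and 0.14 ± 0.040 (adjusted p = 0.00812) in normoxia, where the call was lost without library 3 of DMSO in normoxia (0.11, adjusted p = 0.0501). CDC25A, the phosphatase that activates CDK2, was at 45.2, 49.0 and 45.7 CPM with onametostat, against 39.9, 38.0 and 37.8 CPM with DMSO in hypoxia. In normoxia CDC25A was at 50.9, 49.6 and 49.4 CPM with onametostat, against 44.6, 46.8 and 44.6 CPM with DMSO. CDC25A was higher by 0.28 ± 0.055 (adjusted p = 0.000378) in hypoxia and 0.14 ± 0.046 (adjusted p = 0.0184) in normoxia, and the call in normoxia was lost without library 1 or 3 of DMSO or library 1 of onametostat in normoxia (0.13, adjusted p of at most 0.0609). With library sizes alone as the scale, CCNA2 (0.10, adjusted p = 0.0516) and CDC25A (0.11, adjusted p = 0.0631) kept their direction in normoxia and did not pass.

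DTL, the receptor of the CRL4 ubiquitin ligase that destroys CDT1 in S phase, was at 82.6, 80.9 and 83.4 CPM with onametostat, against 117, 113 and 108 CPM with DMSO in hypoxia. In normoxia DTL was at 90.7, 88.7 and 91.0 CPM with onametostat, against 141, 132 and 139 CPM with DMSO. DTL was lower, at -0.46 ± 0.044 (adjusted p = 1.96e-07) and -0.61 ± 0.038 (adjusted p = 9.22e-10). UHRF1, which brings the maintenance methyltransferase to newly copied DNA, was at 105, 115 and 88.8 CPM with onametostat, against 103, 98.0 and 97.3 CPM with DMSO in hypoxia. In normoxia UHRF1 was at 106, 104 and 104 CPM with onametostat, against 112, 117 and 116 CPM with DMSO. It was the one gene called in opposite directions, higher in hypoxia by 0.12 ± 0.049 (adjusted p = 0.0472), with overlap, and lower in normoxia at -0.14 ± 0.043 (adjusted p = 0.0129). Both calls are fragile: that in hypoxia was lost without any 1 of 9 libraries (all but library 1 of DMSO and libraries 1 and 3 of onametostat in hypoxia, adjusted p = 0.0754 to 0.453) and with the experiment as a block (0.11, adjusted p = 0.0961), and that in normoxia without any 1 of 4 (libraries 2 and 3 of DMSO and of onametostat in normoxia, adjusted p = 0.0516 to 0.0803).

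Since partners and genes of related function were often apart, the counts of such pairs were divided by each other within each library, a measure that no scaling between libraries can move. The pairs were chosen after the values were seen and carry no test. The ratio of GINS4 to GINS1 was 0.212, 0.188 and 0.139 with onametostat in hypoxia, 0.209, 0.201 and 0.195 with onametostat in normoxia, 0.550, 0.522 and 0.540 with DMSO in hypoxia and 0.602, 0.575 and 0.592 with DMSO in normoxia. RRM2 to RRM1 was 0.342, 0.335 and 0.423 with onametostat in hypoxia, 0.374, 0.333 and 0.364 with onametostat in normoxia, 0.789, 0.788 and 0.758 with DMSO in hypoxia and 0.923, 0.924 and 0.897 with DMSO in normoxia. In both pairs the libraries with onametostat lay below all those with DMSO.

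POLE to POLA1 went the other way, at 3.08, 2.50 and 3.53 with onametostat in hypoxia, 2.54, 2.42 and 2.7 with onametostat in normoxia, 1.15, 1.07 and 1.23 with DMSO in hypoxia and 0.942, 1.02 and 1.06 with DMSO in normoxia. CCNE2 to CCNE1 averaged 0.845 ± 0.146 with onametostat in hypoxia, 0.864 ± 0.0197 with onametostat in normoxia, 1.42 ± 0.0567 with DMSO in hypoxia and 1.53 ± 0.104 with DMSO in normoxia (SD, n = 3 each). TIMELESS to TIPIN was 2.02, 2.01 and 5.00 with onametostat in hypoxia, where the last rests on 15 and 3 counts, 1.62, 1.32 and 1.48 with onametostat in normoxia, 5.05, 4.13 and 4.56 with DMSO in hypoxia and 3.42, 3.47 and 3.42 with DMSO in normoxia. Apart from that 1 library, TIMELESS was nearer to TIPIN in counts with onametostat than with DMSO.

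**Figure D3:**
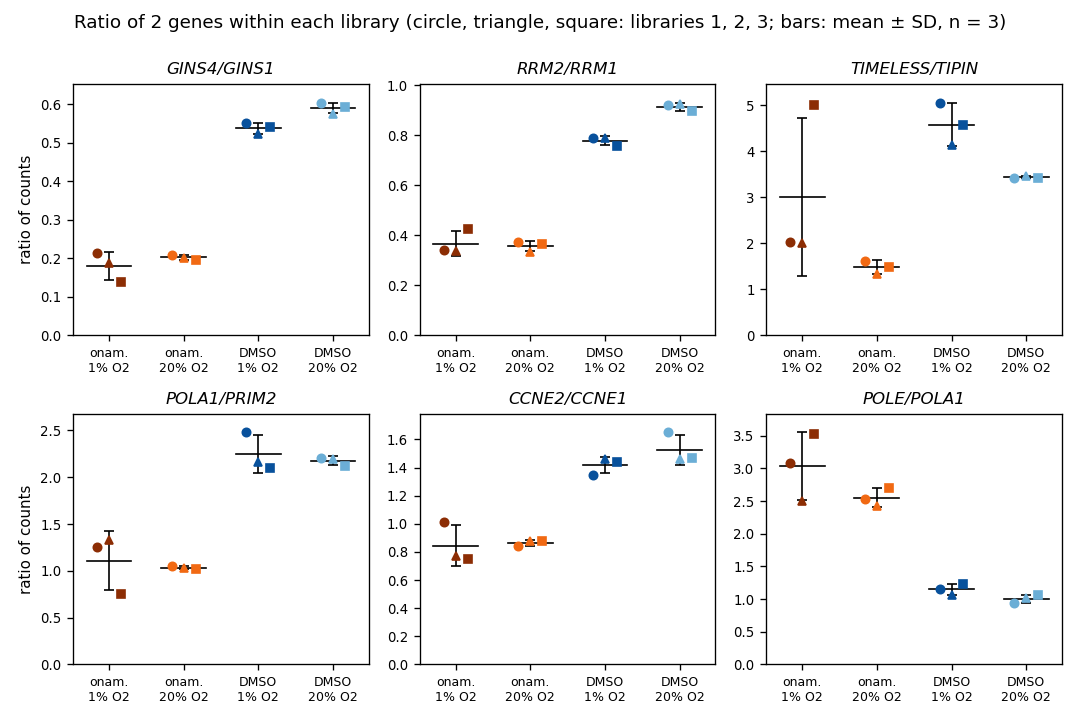
Ratio of the counts of 2 genes in the same library (y axis, from 0), for 6 pairs in the 12 libraries by group, with onametostat left of DMSO. Circles, triangles and squares are libraries 1, 2 and 3 and the bars are the mean ± SD. In 5 of the pairs the ratio is lower with onametostat and for POLE/POLA1 it is higher, with library 3 of onametostat in hypoxia (TIMELESS/TIPIN at 5.00) as the one point that overlaps DMSO.

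In cells with DMSO these genes were mildly lower in hypoxia. Against normoxia 26 of 52 were lower and 0 higher at an adjusted p under 0.05 (edgeR), where 13.9% of all genes were lower and 14.1% higher. At an unadjusted p under 0.05, 37 of the 52 genes differed, and so did 5676 of the 14698 genes tested. The median log2 fold change was -0.16 (all genes 0.00), the values ran from -0.37 (TIPIN) to 0.06 (POLE), and 48 of the 52 were negative, as were 7501 of the 14698. Leaving out library 3 of DMSO in hypoxia brought the count of 26 lower genes to 18. With library 3 of onametostat in hypoxia removed, which is in neither group but in the shared estimate of the spread, 35 were lower and 0 higher (16.4% and 16.3% of all genes).

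**Figure D4:**
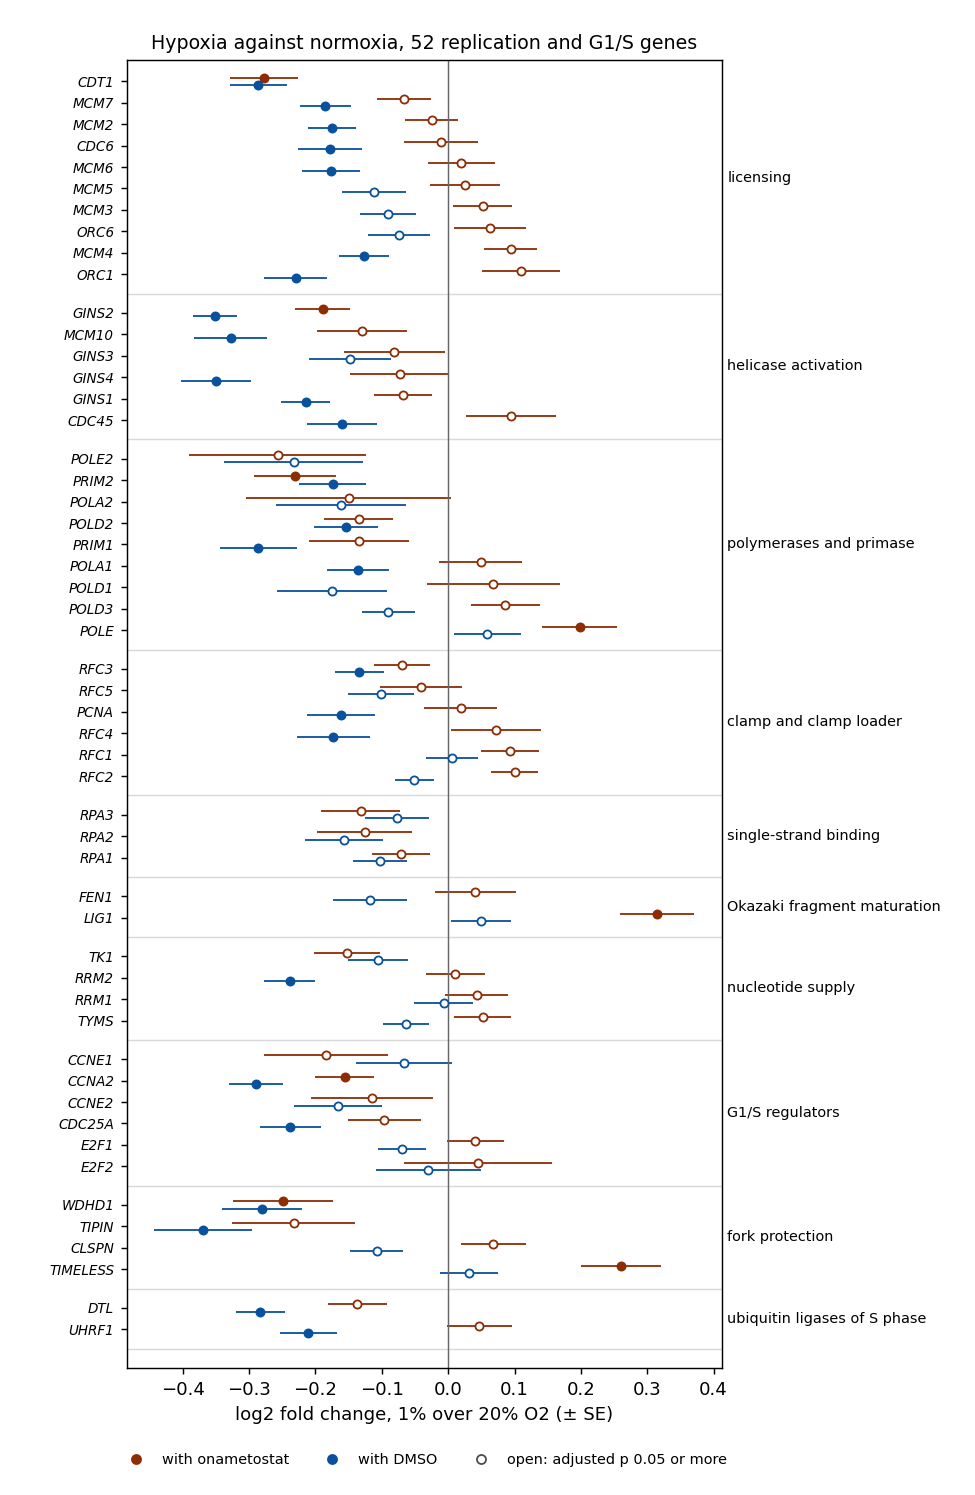
Log2 fold change of hypoxia over normoxia for each of the 52 genes (x axis, with its SE), by role, in cells with onametostat (dark brown) and with DMSO (blue). Filled points have an adjusted p under 0.05 (edgeR). With DMSO 48 of the 52 points lie left of 0 and none is beyond -0.37, and with onametostat the points scatter around a median of -0.02.

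The oxygen calls with DMSO with the smallest adjusted p were spread over the roles. GINS2, whose values are given above, was lower, at -0.35 ± 0.033 (adjusted p = 1.55e-06) and DTL at -0.28 ± 0.037 (adjusted p = 3.88e-05). CCNA2 was at 160.2, 165 and 164 CPM in hypoxia, against 203, 203 and 192 CPM in normoxia, and lower, at -0.29 ± 0.040 (adjusted p = 6.08e-05). The libraries of these 3 genes did not overlap between the oxygen levels, which was a condition for being listed here. CDT1 (-0.29, adjusted p = 0.000117), GINS4 (-0.35, adjusted p = 0.000124), RRM2 (-0.24, adjusted p = 0.000231), MCM10 (-0.33, adjusted p = 0.000328), GINS1 (-0.21, adjusted p = 0.000349), CDC25A (-0.24, adjusted p = 0.00111) and TIPIN (-0.37, adjusted p = 0.00133) followed, each with no overlap. So CDT1, CCNA2 and CDC25A, which were higher with onametostat, were lower in hypoxia, in comparisons that share the libraries with DMSO.

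By role, the genes lower in hypoxia with DMSO were 7 of 10 licensing genes, 5 of 6 genes of helicase activation, 4 of 9 polymerase and primase genes, 3 of 6 genes of the clamp and its loader, 0 of 3 RPA genes, 0 of 2 genes of Okazaki fragment joining, 1 of 4 of nucleotide supply, 2 of 6 of G1/S regulation, 2 of 4 of fork protection and 2 of 2 of the ubiquitin ligases. Of all genes 13.9% were lower in this comparison. TIMELESS (0.03, adjusted p = 0.642), LIG1 (0.05, adjusted p = 0.452) and POLE (0.06, adjusted p = 0.418) were among the members that did not pass. So were TYMS (-0.06), TK1 (-0.11), E2F1 (-0.07), E2F2 (-0.03), CCNE1 (-0.07) and CCNE2 (-0.17). In 9 of the 26 genes the call was lost without at least 1 library, namely CDC6, MCM4, CDC45, POLA1, PRIM2, POLD2, PCNA, RFC3 and RFC4 (adjusted p = 0.0528 to 0.288). CDC6 (-0.18) lost it without libraries 1 and 2 of DMSO in normoxia or 2 and 3 in hypoxia (adjusted p = 0.0528 to 0.0773), and MCM4 (-0.13) without library 2 of DMSO in normoxia or 3 in hypoxia (adjusted p = 0.0536 to 0.0587). CDC45 (-0.16) lost it without any 1 of the 6 libraries with DMSO (adjusted p = 0.0597 to 0.136). POLA1 (-0.14) lost it without any 1 of 8 libraries (adjusted p = 0.0743 to 0.288) and PCNA (-0.16) without any 1 of 5 (adjusted p = 0.0547 to 0.0813). RPA2 (-0.16, adjusted p = 0.0564) passed with the experiment as a block (-0.16, adjusted p = 0.0379).

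With onametostat the oxygen level left fewer calls. In hypoxia 5 genes were lower and 3 higher, where 6.16% of all genes were lower and 7.69% higher, and the median was -0.02 (all genes 0.00). Without library 3 of onametostat in hypoxia, 6 were lower and 3 higher (6.94% and 8.61% of all genes). The 5 were CDT1 (-0.28, adjusted p = 0.00193), GINS2 (-0.19, adjusted p = 0.00622), PRIM2 (-0.23, adjusted p = 0.0190), CCNA2 (-0.16, adjusted p = 0.0261) and WDHD1 (-0.25, adjusted p = 0.0363), and all 5 were also among the 26 lower with DMSO. The 3 higher were LIG1 (0.32 ± 0.056, adjusted p = 0.00149), TIMELESS (0.26 ± 0.060, adjusted p = 0.00881) and POLE (0.20 ± 0.056, adjusted p = 0.0261), none of which passed with DMSO. These calls rest on few libraries: 0 genes were lower when library 1 of onametostat in hypoxia was left out and 8 when library 2 was, and LIG1 alone kept its call without any 1 library. With the experiment as a block WDHD1 lost its call (-0.23, adjusted p = 0.0573). TIMELESS lost its own without library 2 of onametostat in hypoxia (0.22, adjusted p = 0.0563), and POLE without library 1 of onametostat in hypoxia, libraries 1 and 2 of onametostat in normoxia or library 3 of DMSO in hypoxia (0.12 to 0.20, adjusted p = 0.0532 to 0.349).

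Whether onametostat acted differently at the 2 oxygen levels was tested as the difference of its log2 fold changes, hypoxia minus normoxia. No gene of the 52 passed with edgeR (0 higher and 0 lower, against 0.225% and 0.272% of all genes), though 24 of them had an unadjusted p under 0.05, where 1937 of the 14698 genes did. Of the 52 differences 47 were positive, as were 7574 of the 14698, with a median of 0.14 (all genes 0.01). A positive difference means that the fold change was less negative, or more positive, in hypoxia. The smallest adjusted p values were those of ORC1 (0.34 ± 0.076, adjusted p = 0.0545), RRM2 (0.25 ± 0.059, adjusted p = 0.0659), MCM4 (0.22 ± 0.054, adjusted p = 0.0781) and UHRF1 (0.26 ± 0.066, adjusted p = 0.0893).

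Other settings called a few of them. With library 3 of onametostat in hypoxia left out, 5 genes passed, all positive (0.66% of all genes were higher and 0.585% lower): ORC1 (0.31, adjusted p = 0.0243), MCM4 (0.22, adjusted p = 0.0316), RRM2 (0.23, adjusted p = 0.0330), UHRF1 (0.27, adjusted p = 0.0334) and PCNA (0.22, adjusted p = 0.0450). Limma voom with quality weights called the same 5 (ORC1, MCM4, PCNA, RRM2 and UHRF1), and DESeq2 called MCM4 and RRM2. With the experiment as a block ORC1 passed (0.37, adjusted p = 0.0365). Without libraries 2 and 3 of onametostat in hypoxia 0 passed. MCM4 shows the pattern in its levels, at 330.4, 328 and 331 CPM in hypoxia with onametostat against 304, 314 and 308 CPM in normoxia, all above, and at 417, 408 and 402 CPM in hypoxia with DMSO against 448, 450.2 and 441 CPM in normoxia, all below.

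For comparison, 90 other genes of the pathway were taken from lists drawn up by role. These lists, like the 52 genes, were chosen with earlier results of these data known, so the contrast is a description. With onametostat 21 of the 90 were lower (23.3%) and 33 higher (36.7%) in hypoxia, where 26.4% of all genes were lower and 25.6% higher. In normoxia 32 were lower (35.6%) and 21 higher (23.3%), where 29.3% of all genes were lower and 27.2% higher. Their median log2 fold change was 0.07 and -0.05, against -0.20 and -0.29 for the 52 genes. In hypoxia with DMSO 33 of the 90 were lower (36.7%) and 5 higher (5.56%), at a median of -0.11, where 13.9% of all genes were lower and 14.1% higher. CCND2, CDKN2A and CDKN2C were on these lists as well but absent from the filtered count table.

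Of these genes, CCND1, the cyclin D1 gene that opens the path to G1/S, was higher with onametostat by 0.88 ± 0.048 (adjusted p = 4.20e-10) in hypoxia and 0.76 ± 0.045 (adjusted p = 5.22e-10) in normoxia. DBF4, the activator of the CDC7 kinase that fires origins, was higher by 0.55 and 0.38, and CCND3 by 0.39 and 0.35. DONSON, which helps to place GINS on the helicase, was lower, at -0.94 ± 0.093 (adjusted p = 2.74e-07) in hypoxia and -1.12 ± 0.076 (adjusted p = 2.75e-09) in normoxia. ASF1B, a histone chaperone of the fork, was lower, at -0.64 and -0.78, MYBL2, an E2F target that drives mitotic genes, at -0.45 and -0.56, and SHMT1, which feeds thymidylate synthesis, at -0.49 and -0.68. CDKN1A, the CDK inhibitor p21, was lower, at -1.16 ± 0.112 (adjusted p = 2.25e-07) in hypoxia and -0.80 ± 0.086 (adjusted p = 5.94e-07) in normoxia. In hypoxia with DMSO MYC was lower (-0.58 ± 0.044, adjusted p = 1.77e-07), as were EXO1 (-0.41), SKP2 (-0.28) and GMNN, the inhibitor of CDT1 (-0.31), while CDKN1B, the CDK inhibitor p27, was higher (0.23 ± 0.045, adjusted p = 0.00112).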

How the data were processed

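The mRNA of T98-G cells was sequenced from 12 stranded libraries, 3 for each of 4 conditions. The authors aligned the reads with STAR (2.7.10a in the labels' processing notes, another version in the study's methods) and counted them per gene with featureCounts at its defaults, and they deposited a filtered table of 14698 genes, whose values are whole counts with a different total in each library although its name calls them normalized. The labels' processing notes name GRCh37 and the study's methods GRCh38, so the build behind the counts is uncertain, and coordinates given here are those of RefSeq GRCh38.p14.

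The counts were analysed with edgeR 4.0.16 (R 4.3.3) in 1 quasi-likelihood fit of all 12 libraries with TMM factors and 1 coefficient per condition. Contrasts gave log2 fold changes with SE and p adjusted by Benjamini-Hochberg over all 14698 genes, with 0.05 as the threshold. CPM used TMM-scaled library sizes, and shares of counts used library totals. Precision is limited by the 3 libraries per group and by total counts, which ran from 403279 to 45977729 per library. Alternatives were RLE factors, library sizes alone, DESeq2 1.42.0, limma 3.58.1 (voom with quality weights), a filter of 1 CPM in 3 libraries, only the 2 groups compared, the replicate block and the removal of libraries. The titles number the experiments, so the number was taken as a block in that alternative, although libraries of 1 experiment did not deviate together (18 pairs, r from -0.08 to 0.08, 0 over 0.1). The fit was tested on simulated data. These gave every library the same spread beyond counting noise, so the departure of library 3 of onametostat in hypoxia was not simulated.

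A fixed set of 16 genes is given with values in every library. So are up to 10 per comparison with the smallest adjusted p, among those that passed and whose groups did not overlap in CPM. Up to 6 other pathway genes per direction are named. The members and lists were chosen with earlier results of these data known. All columns of the table mapped to a library.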

Additional observations from a re-analysis of the deposited data

How the results depend on the processing

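Without any 1 library, the number of genes called higher with onametostat in normoxia ran from 5 (without library 3 of DMSO in normoxia) to 9. For hypoxia against normoxia in cells with onametostat, the number called lower ran from 0 (without library 1 of onametostat in hypoxia) to 8 (without library 2). The number that passed with a positive difference between the oxygen levels ran from 0 to 5 (without library 3 of onametostat in hypoxia). The median log2 fold change with onametostat in normoxia ran from -0.30 to -0.27. That median was -0.32 with library sizes alone. Genes lower in hypoxia than in normoxia, both with onametostat, numbered 3 with DESeq2 and 3 with the 2 groups alone. The difference between oxygen levels was positive and passed for 2 genes with DESeq2 and 5 with limma voom. With an absolute log2 fold change above 1 required as well, 3 genes were lower and 0 higher with onametostat in hypoxia, 3 lower and 0 higher in normoxia, and 0 were called in either oxygen comparison.

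With the replicate block, 1 gene (ORC1) passed for the difference between oxygen levels, where 0 did without it. MCM2, FEN1 and UHRF1 lost their call for onametostat against DMSO in hypoxia, and CCNE1 and TIPIN gained one for it in normoxia. For hypoxia against normoxia, WDHD1 lost its call with onametostat and RPA2 gained one with DMSO. The block changed no other call of the 52 genes.

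No value changed sign with a call. For the fixed 16 genes and those picked by smallest adjusted p, in all 5 comparisons, 30 values gained and 66 lost their call with 1 library left out, while 1704 did not change side, and 32 gained and 29 lost it under other settings, while 989 did not. Among all 52 genes, leaving out 1 library or another lost 5 of 42 calls with onametostat in normoxia and 7 of 38 in hypoxia. For oxygen it lost 9 of 26 calls with DMSO and 7 of 8 with onametostat. Library 3 of onametostat in hypoxia limits what can be said of genes at low levels there, since 28 of the 52 had fewer than 30 counts.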

Other observations

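Genes of G2 and mitosis, from a list also chosen with earlier results of these data known, did not follow the replication genes. Of 24 such genes, 14 were higher and 4 lower with onametostat in hypoxia, at a median log2 fold change of 0.27, and 14 were higher and 6 lower in normoxia, at a median of 0.19. Among all genes 25.6% were higher and 26.4% lower in hypoxia, and 27.2% and 29.3% in normoxia. In hypoxia against normoxia 4 of the 24 were higher and 3 lower with onametostat (7.69% and 6.16% of all genes), and 3 higher and 6 lower with DMSO (14.1% and 13.9% of all genes).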
